A study of Rattus norvegicus with 23 samples.

Results

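The imprinted Dlk1-Dio3 region of rat chromosome 6 holds a large cluster of miRNA genes, and its miRNAs were followed here across rat mammary carcinomas and normal mammary tissue. The members were all miRNAs of the array design whose name, without the arm suffix or star, is 1 of 35 names of this cluster. Of these names, 34 were on the array, as 43 mature arms among 350 miRNAs in all, and only rno-miR-496 had no array miRNA. Arms without any signal above background were kept. The 35 member genes matched the RefSeq annotation of assembly GRCr8, where all lie on chromosome 6 between Dlk1 and Dio3, over 265 kb (chr6:134314731-134579838).

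Total RNA of 23 tissue pieces from female Sprague-Dawley rats was labelled with Cy3 and hybridised to Agilent miRNA arrays of 1 colour, 1 array per sample. The groups were 8 radiation-induced mammary carcinomas, 8 mammary carcinomas labelled spontaneous and 7 normal mammary tissues. The labels used here give no radiation dose and no age. The carcinoma codes hold 16 different numbers, taken here as 16 animals. For normal tissue nothing states that each piece came from its own animal, and p-values against it may then measure partly technical spread. Levels are of whole tissue, so fewer cells of a type and less RNA per cell cannot be told apart.

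The arrays lie on 4 slides, and each slide was scanned as 1 batch. Spontaneous carcinomas 1 to 5 carry K codes and lie on slides 1 and 2, while spontaneous carcinomas 6 to 8 and all radiation-induced ones carry M codes. Slide 4 holds all 3 groups, slide 3 radiation-induced carcinomas and normal tissues, and slides 1 and 2 spontaneous carcinomas and normal tissues. Radiation-induced carcinoma arrays detected 169 to 201 of the 350 miRNAs, spontaneous carcinoma arrays 154 to 174 and normal tissue arrays 180 to 211. The lowest signal well above background, after scaling, ran from 3.74 to 14.1 on radiation-induced, from 12.02 to 29.7 on spontaneous and from 3.90 to 9.55 on normal tissue arrays, so a dim miRNA had to be brighter to be detected on a spontaneous carcinoma array. All 5 miRNAs of the epithelial miR-200 family lay at the floor of log2 3.29 in radiation-induced carcinoma 3 and spontaneous carcinoma 1 and were high in every other sample. Values that rest on these samples are given sample by sample.

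Imprinted genes are expressed from 1 parental allele. In this region the paternal chromosome expresses the protein genes Dlk1, Rtl1 and Dio3, while the maternal chromosome expresses Meg3 and a run of other non-coding RNAs that carry the miRNAs, under the control of a differentially methylated region between Dlk1 and Meg3. The miRNAs are best known from the embryo, the placenta and the brain, and most adult tissues hold little of them. A first, smaller set of them lies near and opposite to Rtl1, and 5 member genes lie within Rtl1 in the annotation. A second, denser set begins with the miR-379 gene and ends with the miR-410 gene. In the annotation 9 member genes precede and 26 follow the widest gap between neighbours, of 196 kb.

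A mature miRNA recognises its targets mainly through its seed, bases 2 to 8. The arms below are those on which the description turns, with sequences from RefSeq (GRCr8, plus strand) and the seed in capitals. The array uses older names without arm suffix, so the RefSeq arm was assigned by name. The first 8 had their highest scaled signal in radiation-induced carcinoma 3.
rno-miR-127: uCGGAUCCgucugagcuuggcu
rno-miR-434: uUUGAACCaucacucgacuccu
rno-miR-379: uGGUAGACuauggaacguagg
rno-miR-411: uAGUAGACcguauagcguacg
rno-miR-299: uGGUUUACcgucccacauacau
rno-miR-329: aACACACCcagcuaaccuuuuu
rno-miR-376a: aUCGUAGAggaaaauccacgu
rno-miR-154: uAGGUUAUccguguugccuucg
The next 6 had their highest scaled signal in spontaneous carcinoma 1 or 4.
rno-miR-494: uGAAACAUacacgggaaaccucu
rno-miR-539: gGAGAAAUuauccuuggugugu
rno-miR-134: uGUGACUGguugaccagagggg
rno-miR-382: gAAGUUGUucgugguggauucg
rno-miR-493: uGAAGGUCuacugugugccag
rno-miR-409-3p: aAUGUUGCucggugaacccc

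The 36 arms with an assigned sequence have 36 different seeds, so none of these arms shares its seed with another. The mature sequence of miR-127 lies at chr6:134328510-134328531, that of miR-494 at chr6:134550163-134550185 and that of miR-539 at chr6:134563606-134563627. The array headers name the older build rn4, and these positions are from GRCr8.

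Most of the cluster was dark in these tissues. Each arm was represented by its brightest probe, which counted as detected on an array if the scanner software marked the majority of its spots as well above background. Of the 43 arms, 18 were detected on at least 1 array (41.9%), against 223 of the 307 other miRNAs (72.6%). Only 2 arms had a probe detected on at least 7 arrays, the minimum for testing (4.65%), against 197 of the other miRNAs (64.2%). The tested arms were rno-miR-494, detected on all 23 arrays, and rno-miR-539, detected on 18. The other 16 detected arms were seen on 1 to 5 arrays each.

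The 25 arms not detected by their brightest probe lay along the whole cluster. They were rno-miR-540, rno-miR-431, rno-miR-433, rno-miR-136*, rno-miR-379*, rno-miR-380, rno-miR-323 and its star arm, rno-miR-543 and its star arm, rno-miR-495, rno-miR-376c, both arms of rno-miR-376b, rno-miR-376a*, rno-miR-381, rno-miR-382*, rno-miR-485, rno-miR-377, rno-miR-541, rno-miR-409-5p, rno-miR-412, both arms of rno-miR-369 and rno-miR-410. Counting any probe, rno-miR-136* was detected on 2 arrays and rno-miR-376b-3p on 1, which leaves 23 arms without a detected probe. Arms of the same hairpin differed, since rno-miR-379, rno-miR-382, rno-miR-376a and rno-miR-409-3p were detected and their partner arms were not.

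**Figure D1:**
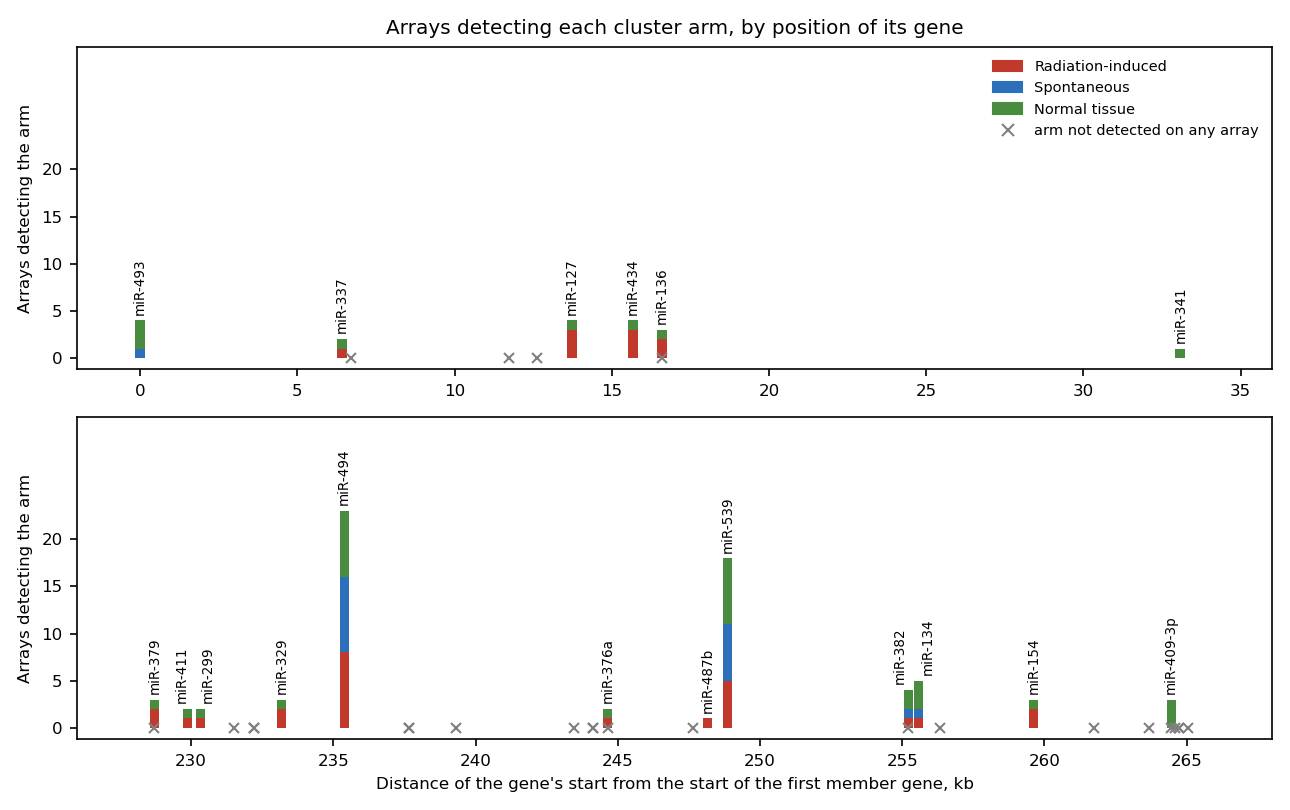
Number of arrays detecting each of the 43 cluster arms (stacked bars, coloured by group) against the distance of its gene from the first member gene, in kb, with the gap of 196 kb between the panels left out. Crosses are arms not detected on any array. rno-miR-494 reaches 23 arrays and rno-miR-539 reaches 18, and no other arm passes 5.

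The number of detected arms varied widely within the groups. Radiation-induced carcinomas 1 to 8 had 5, 2, 13, 2, 1, 1, 8 and 2 detected arms. Spontaneous carcinomas 1 to 8 had 5, 2, 2, 2, 1, 1, 2 and 2. Normal tissues 1 to 7 had 3, 6, 13, 5, 2, 5 and 2. Radiation-induced carcinoma 3 and normal tissue 3 thus stood highest, and all 3 groups overlapped. Over all miRNAs of the array these 2 samples differed. Normal tissue 3 detected 211 miRNAs, the most of any array. Radiation-induced carcinoma 3 detected 189, near the median of 188.5 in radiation-induced carcinomas. The mean was 4.25 ± 4.27 in radiation-induced carcinomas (SD, n = 8), 2.12 ± 1.25 in spontaneous carcinomas (SD, n = 8) and 5.14 ± 3.80 in normal tissues (SD, n = 7).

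The order of these means depended on the limit used for detection. With 1 limit for all arrays (a scaled signal above 29.7, chosen after the data had been seen), radiation-induced carcinomas had 1.62 ± 1.41 arms above it, spontaneous carcinomas 1.75 ± 0.71 and normal tissues 1.29 ± 0.49 (SD). Radiation-induced carcinoma 3 still had 5 arms above this limit, the most of any array, and normal tissue 3 had 1. The lowest signals well above background were 3.74 in radiation-induced carcinoma 2 and 4.32, 3.90 and 4.76 in normal tissues 2, 3 and 4. These samples detected 1, 4, 11 and 3 arms beside rno-miR-494 and rno-miR-539. Radiation-induced carcinoma 3 detected 11 such arms with a lowest signal well above background of 8.56. The part of array sensitivity in the counts was not tested.

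**Figure D2:**
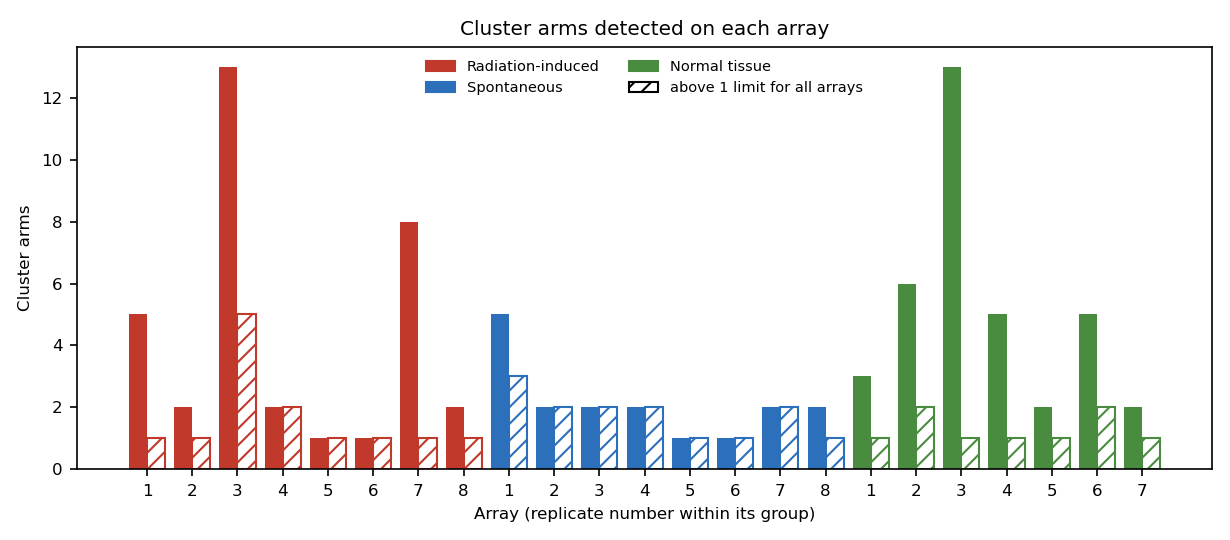
Cluster arms detected on each array at that array's own limit (filled bars) and above 1 limit for all arrays (hatched bars), by group. Radiation-induced carcinoma 3 and normal tissue 3 both reach 13 at their own limit, and 5 and 1 at the common limit.

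The arms detected beside both tested ones fell into sets by the sample in which they were brightest, as found after their values had been seen. By scaled signal, 10 of the 18 detected arms were highest in radiation-induced carcinoma 3 and 6 in spontaneous carcinoma 1, rno-miR-341 not well above background among them. The other 2, rno-miR-409-3p and rno-miR-487b, were highest in spontaneous carcinoma 4, though not well above background. The share of the other detected miRNAs that were highest in these samples is not given here. These counts thus do not set the cluster apart from other miRNAs. Without scaling, normal tissue 3 was above radiation-induced carcinoma 3 for rno-miR-434 (log2 5.84 against 5.64), rno-miR-329 (4.35 against 3.95) and rno-miR-154 (4.60 against 4.31). The rest of the 10 stayed higher in radiation-induced carcinoma 3. Normal tissue 2 was then above spontaneous carcinoma 1 for its arms other than rno-miR-494, with 6.70 against 5.92 for rno-miR-539. Radiation-induced carcinoma 3 detected 189 of all 350 miRNAs and normal tissue 3 detected 211. How many of these they shared is not given here, so the overlap of their cluster arms has no share over all miRNAs beside it. Apart from both tested arms, radiation-induced carcinoma 3 and normal tissue 3 each detected 11 arms, and these were the same 11. They were rno-miR-127, rno-miR-434, rno-miR-136, rno-miR-337, rno-miR-379, rno-miR-411, rno-miR-299, rno-miR-329, rno-miR-376a, rno-miR-154 and rno-miR-382. All 6 such arms of radiation-induced carcinoma 7 were among the 11. Only rno-miR-382 among the 11 was detected in a spontaneous carcinoma. These detections rest on the brighter of the 2 probes of each arm. Both probes were detected on 2 arrays for rno-miR-127, rno-miR-434 and rno-miR-136 and on 1 for rno-miR-154, rno-miR-379 and rno-miR-382. For rno-miR-299, rno-miR-329, rno-miR-337, rno-miR-376a and rno-miR-411 both probes were detected on 0 arrays.

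rno-miR-127, which in the mouse is transcribed opposite to Rtl1 and pairs fully with its mRNA, showed this pattern. Its scaled signal was 64.0, 26.7 and 13.7 in radiation-induced carcinomas 3, 7 and 1, where it was detected, and 13.0 in radiation-induced carcinoma 6, where it was not. In spontaneous carcinomas it was at most 5.17 and never well above background. In normal tissue it was 29.1 in sample 3 and at most 1.38 in the others. On the log2 scale, where signals under the floor of 3.29 are set to it, its lowest, median and highest levels were 3.29, 3.50 and 6.00 in radiation-induced carcinomas and 3.29, 3.29 and 4.86 in normal tissues, with all 8 spontaneous carcinomas at the floor.

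rno-miR-434 and rno-miR-136 are the next detected arms along the chromosome and also lie opposite to Rtl1. The signal of rno-miR-434 was 39.3 and 22.9 in radiation-induced carcinomas 3 and 7, at most 9.51 in spontaneous carcinomas and 22.3 in normal tissue 3. The signal of rno-miR-136 was 36.6 and 24.3 in radiation-induced carcinomas 3 and 7, at most 6.54 in spontaneous carcinomas and 17.4 in normal tissue 3. Both had their 3 highest signals in the same samples as rno-miR-127.

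rno-miR-379, which opens the second set of genes, starts 215 kb after rno-miR-127. Its signal was 31.3 and 13.1 in radiation-induced carcinomas 3 and 7, at most 1.58 in spontaneous carcinomas and 12.5 in normal tissue 3. The samples with the highest signals of these arms near Rtl1 were thus highest for rno-miR-379 too. In radiation-induced carcinoma 1 it was not detected.

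The signals of rno-miR-127, rno-miR-434, rno-miR-136 and rno-miR-379 in radiation-induced carcinoma 3 lay above the lowest signal well above background of all 8 spontaneous carcinoma arrays. That holds for 5 of these 8 arrays for rno-miR-299, for 4 for rno-miR-154, for 3 for rno-miR-376a, for 1 each for rno-miR-329 and rno-miR-411 and for 0 for rno-miR-337. A signal above an array's lowest one was not always detected, so lying above it does not ensure detection. rno-miR-382 in normal tissue 4, for example, had 5.49 without detection, against a lowest signal of 4.76. For these 6 dimmer arms, the signal in radiation-induced carcinoma 3 was under that limit on some or all spontaneous carcinoma arrays, so a like signal could not have been told from background on those arrays.

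The 6 dimmer arms of the set were all detected in radiation-induced carcinoma 3 and normal tissue 3, and 2 of them in radiation-induced carcinoma 7. rno-miR-154, which gave its name to a family of related hairpins in this cluster, had signals of 15.7 and 11.5 in radiation-induced carcinomas 3 and 7, at most 6.06 in spontaneous carcinomas and 9.40 in normal tissue 3. rno-miR-329 had 12.2 and 10.7 in radiation-induced carcinomas 3 and 7, at most 4.07 in spontaneous carcinomas and 7.90 in normal tissue 3. rno-miR-299, rno-miR-411, rno-miR-376a and rno-miR-337 were detected in radiation-induced carcinoma 3, with 17.2, 13.2, 14.7 and 10.4, and in normal tissue 3, with 6.02, 5.15, 5.84 and 4.61. These 4 arms were not detected in radiation-induced carcinoma 7, with 9.69, 5.05, 7.72 and 5.44. None was detected in a spontaneous carcinoma, where rno-miR-299 reached 6.85, rno-miR-376a 2.32, rno-miR-337 2.05 and rno-miR-411 -1.23 after background subtraction.

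rno-miR-376a is known in the mouse and human brain for editing of its seed, which arrays do not resolve. Different arms are different probes, so their levels are not compared with each other.

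Other miRNAs of the same stretch were also seldom detected. Among the 4 other array miRNAs whose genes lie between the outermost members, rno-miR-300-3p was detected on 3 arrays, again radiation-induced carcinomas 3 and 7 and normal tissue 3, rno-miR-370 on 1 (normal tissue 6), and rno-miR-300-5p and rno-miR-758 on 0.

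**Figure D3:**
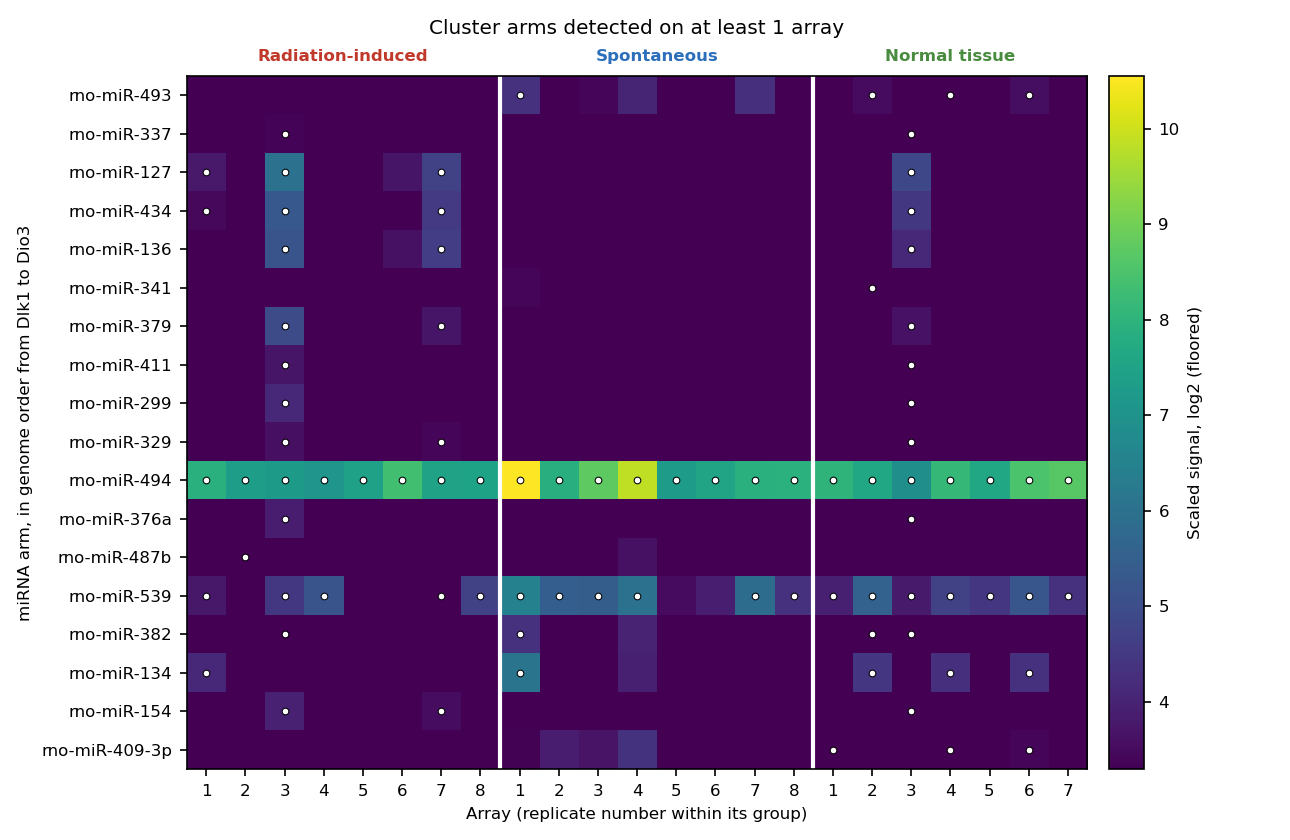
Scaled signal (log2, floored at 3.29) of the 18 detected arms, in genome order, on the 23 arrays, with white dots where the arm was well above background. The columns of radiation-induced carcinoma 3 and normal tissue 3 carry the same 13 dots, and spontaneous carcinoma 1 stands out for rno-miR-494, rno-miR-539 and rno-miR-134 instead.

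The remaining detected arms did not share that pattern. rno-miR-134, which in rat hippocampal neurons restrains dendritic spine growth through Limk1, was detected with a scaled signal of 17.1 in radiation-induced carcinoma 1, 67.6 in spontaneous carcinoma 1 and 21.8, 19.2 and 20.3 in normal tissues 2, 4 and 6. In radiation-induced carcinoma 3 it was 1.78. On the log2 scale its lowest, median and highest levels were 3.29, 3.29 and 4.10 in radiation-induced carcinomas, 3.29, 3.29 and 6.08 in spontaneous carcinomas and 3.29, 3.29 and 4.45 in normal tissues. Spontaneous carcinoma 1 was therefore high and radiation-induced carcinoma 3 low, the reverse of rno-miR-127.

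rno-miR-493, the first gene of the cluster, was detected in the same spontaneous carcinoma, with 20.2, and in normal tissues 2, 4 and 6, with 11.4, 7.16 and 11.8. rno-miR-382, whose gene ends 289 bases before that of rno-miR-134, was detected in radiation-induced carcinoma 3 with 8.90 and was highest in spontaneous carcinoma 1, with 19.99. It was also detected in normal tissues 2 and 3, with 7.33 and 5.46. rno-miR-409-3p was detected in no carcinoma and in 3 normal tissues (1, 4 and 6), although its highest signal was 20.5 in spontaneous carcinoma 4, below that array's lowest signal well above background of 23.4. rno-miR-341 was detected in normal tissue 2 alone and rno-miR-487b in radiation-induced carcinoma 2 alone.

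Arms of neighbouring genes could thus differ in the samples with the highest scaled signal. The gene of rno-miR-329 ends 2105 bases before that of rno-miR-494, and by scaled signal these arms were highest in radiation-induced carcinoma 3 and spontaneous carcinoma 1. Without scaling, rno-miR-329 was highest in normal tissue 3 (log2 4.35, against 3.95 in radiation-induced carcinoma 3). Both of its probes were detected together on 0 arrays. Whether the genes or only the probe signals differed was not tested. rno-miR-127 and rno-miR-379, whose genes start 215 kb apart, were both highest in radiation-induced carcinoma 3.

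Both tested arms could be compared between the groups over all 23 arrays. rno-miR-494 had levels (log2) of 7.90, 7.32, 7.25, 7.09, 7.46, 8.35, 7.49 and 7.51 in radiation-induced carcinomas 1 to 8. The levels were 10.55, 7.87, 8.76, 9.85, 7.27, 7.52, 7.91 and 7.93 in spontaneous carcinomas 1 to 8 and 8.03, 7.66, 6.92, 8.13, 7.66, 8.49 and 8.67 in normal tissues 1 to 7. Spontaneous carcinomas 1 and 4 were higher than every other sample, and the 3 groups overlapped. Without scaling these 2 samples had log2 signals of 10.002 and 8.32, against 8.06 to 9.36 in normal tissues, so that only spontaneous carcinoma 1 was above all of them. Spontaneous carcinoma 4 was the dimmest array, with a 75th percentile of 335 before scaling, against 442 to 2494 on the others.

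rno-miR-539, reported in mouse heart cells to target prohibitin 2, had levels (log2) of 3.77, 3.29, 4.48, 5.17, 3.29, 3.29, 3.32 and 4.69 in radiation-induced carcinomas 1 to 8. The levels were 6.47, 5.45, 5.43, 6.04, 3.50, 3.91, 5.87 and 4.34 in spontaneous carcinomas 1 to 8 and 3.94, 5.57, 3.82, 4.73, 4.44, 5.23 and 4.32 in normal tissues 1 to 7. It was well above background in 5 of 8 radiation-induced carcinomas, 6 of 8 spontaneous carcinomas and 7 of 7 normal tissues. The 3 radiation-induced carcinomas without detection lay at the floor, and the groups overlapped.

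**Figure D4:**
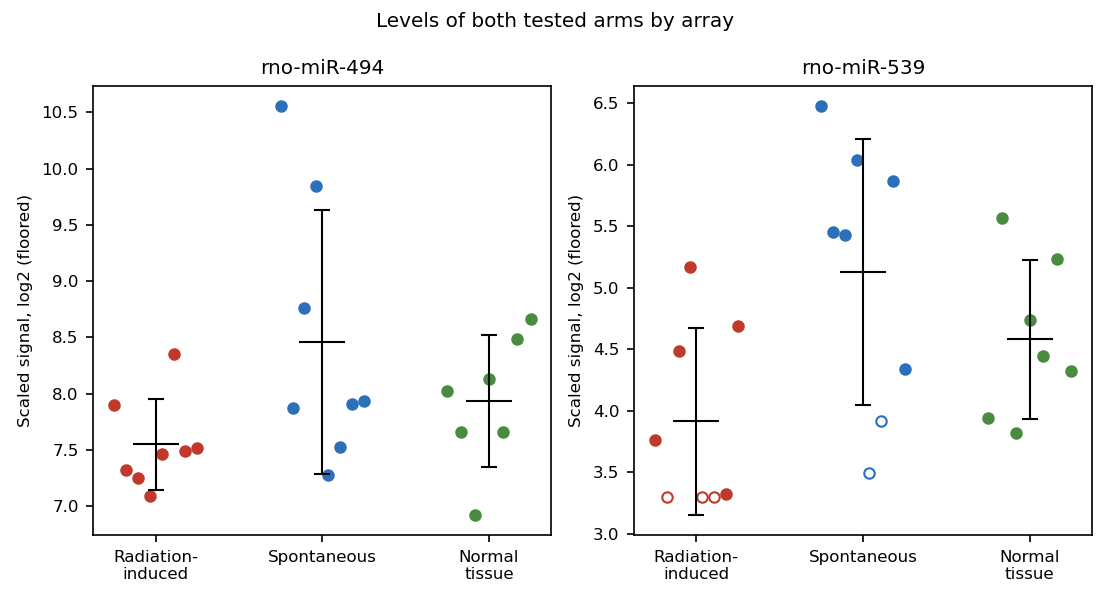
Levels (log2 scaled signal, floored) of rno-miR-494 and rno-miR-539 in each sample by group. Filled points were well above background and open points were not, and bars give the mean and SD. rno-miR-539 averaged 3.91 in radiation-induced and 5.13 in spontaneous carcinomas.

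Radiation-induced and spontaneous carcinomas differed in 1 of the 2 tested arms. rno-miR-539 was lower in radiation-induced carcinomas, with 3.91 ± 0.76 in these and 5.13 ± 1.08 in spontaneous carcinomas (log2, SD, n = 8 each) and a difference of -1.21 ± 0.41 (SE, limma adjusted p = 0.0433). With 3 of the 8 radiation-induced values at the floor, the size of the difference depends on where the floor is set. In 7 of 8 radiation-induced carcinomas it was below the spontaneous mean. The share of all 199 tested miRNAs called in this comparison was 18.1%, and 1 call of 2 arms cannot be told apart from that share. The median difference was -1.06 over both arms and -0.02 over all tested miRNAs. rno-miR-494 averaged 7.55 ± 0.40 in radiation-induced and 8.46 ± 1.17 in spontaneous carcinomas, and its difference of -0.91 ± 0.39 (SE) did not pass (limma adjusted p = 0.0962), with 8 of 8 radiation-induced carcinomas below the spontaneous mean.

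The call of rno-miR-539 was close to the threshold and did not hold under most other settings. It passed in 2 of 15 other settings, with adjusted p from 0.00211 to 0.551 over the 15. The difference was -0.43 without scaling, where the median of all tested miRNAs lay at 0.81, -0.57 with a raised floor, -0.79 in the deposited table and -1.85 with the total gene signal. With slide as a block the difference was -1.25 (adjusted p = 0.173), and within slide 4, which holds 3 carcinomas of each kind, it was -0.94 (adjusted p = 0.551). The difference of rno-miR-494 was -0.73 with the block (adjusted p = 0.431) and -0.0044 within slide 4. Against the 3 M-coded spontaneous carcinomas alone the differences were -0.24 for rno-miR-494 and -0.79 for rno-miR-539 (adjusted p = 0.679 and 0.353). The call was also lost when any of 12 arrays was left out: radiation-induced carcinomas 1, 2, 5, 6 and 7, spontaneous carcinomas 1, 2, 3, 4 and 7 and normal tissues 4 and 7, with adjusted p up to 0.086 and differences from -1.44 to -1.02 over all 23 leave-one-out fits.

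Radiation-induced carcinomas did not differ from normal tissue in a tested arm beyond the threshold, where 25.1% of the 199 miRNAs were called. rno-miR-494 averaged 7.55 ± 0.40 in radiation-induced carcinomas and 7.94 ± 0.59 in normal tissues (SD, n = 8 and 7), with a difference of -0.39 ± 0.40 (SE, limma adjusted p = 0.531). rno-miR-539 averaged 3.91 ± 0.76 in radiation-induced carcinomas and 4.58 ± 0.64 in normal tissues, with a difference of -0.66 ± 0.43 (SE, limma adjusted p = 0.262). Within slides 3 and 4 the differences were -0.67 and -0.88 for rno-miR-494 and -0.83 and -0.55 for rno-miR-539, with adjusted p from 0.399 to 0.871. The median difference was -0.53 over both arms and 0.14 over all tested miRNAs. At an unadjusted p under 0.05, 0 of the 2 arms passed. Without scaling, where the median of all tested miRNAs lay at -0.21, both passed unadjusted, with -0.80 for rno-miR-494 (limma adjusted p = 0.146) and -1.16 for rno-miR-539 (limma adjusted p = 0.0549). In the deposited table both passed unadjusted too, with -0.84 (adjusted p = 0.145) and -1.60 (adjusted p = 0.0504). The difference of rno-miR-539 was -1.39 with the total gene signal (limma adjusted p = 0.117, unadjusted p under 0.05), -0.11 with a raised floor and -0.0096 with normexp.

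Spontaneous carcinomas likewise had 0 of 2 arms called against normal tissue, where 40.7% of the 199 miRNAs were called. rno-miR-494 averaged 8.46 ± 1.17 in spontaneous carcinomas and 7.94 ± 0.59 in normal tissues, a difference of 0.52 ± 0.40 (SE, limma adjusted p = 0.309), but -0.83 without scaling and, within slides 1, 2 and 4, 1.37, 1.101 and -0.88. rno-miR-539 averaged 5.13 ± 1.08 in spontaneous carcinomas and 4.58 ± 0.64 in normal tissues, a difference of 0.55 ± 0.43 (SE, limma adjusted p = 0.318), but -0.73 without scaling and, within slides 1, 2 and 4, 1.21, 0.71 and 0.38. The median difference was 0.54 over both arms and 0.23 over all tested miRNAs. Without scaling the median of all tested miRNAs itself lay at -0.98, so both arms were above that median under either setting. At an unadjusted p under 0.05, 0 of the 2 arms passed.

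The probes of each tested arm gave the same order of the group means. Both probes of rno-miR-494 and all 4 of rno-miR-539 were highest on average in spontaneous carcinomas and lowest in radiation-induced ones. With no filter on dim probes, all 43 arms entered the fit and 0 were called in each of the 3 comparisons. Of all 350 miRNAs, 6.57% were then called between radiation-induced and spontaneous carcinomas, 9.71% between radiation-induced carcinomas and normal tissue and 21.1% between spontaneous carcinomas and normal tissue. At an unadjusted p under 0.05, 4 of the 43 passed between radiation-induced and spontaneous carcinomas (rno-miR-409-3p, rno-miR-493, rno-miR-494 and rno-miR-539), and 0 passed in either comparison with normal tissue, against 20.6% of all 350 miRNAs between the carcinomas and 21.7% and 28.3% against normal tissue. rno-miR-409-3p was detected in 0 carcinomas and rno-miR-493 in 1, so their differences rest mostly on signals not well above background. With normexp, 2 of 2 tested arms were called between radiation-induced and spontaneous carcinomas, where 52.3% of the 199 miRNAs were called, and 1 of 2 between spontaneous carcinomas and normal tissue, where 72.4% were called.

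Markers of other cell types stood high in some of these samples. Radiation-induced carcinoma 3, which lacked the miR-200 family, had the highest summed signal of the 5 fibroblast and smooth muscle miRNAs of any array. That sum was 25108 there, against 5965 to 15771 in the other radiation-induced carcinomas, 2666 to 9489 in spontaneous carcinomas and 9464 to 14512 in normal tissues. Normal tissue 3 had the highest sum of the normal tissues, 14512. Radiation-induced carcinoma 7 had 11747, less than radiation-induced carcinomas 1 and 8. Members of the list differed. rno-miR-199a-3p had a log2 level of 13.51 in radiation-induced carcinoma 3, the highest of all samples, while rno-miR-143 had 11.77 there, the lowest of the radiation-induced carcinomas (11.77 to 13.73). In radiation-induced carcinoma 7 rno-miR-199a-3p was at 10.56, below radiation-induced carcinoma 6 (10.90) and spontaneous carcinomas 1 (11.82) and 8 (10.96), where rno-miR-127 was not detected. It was 12.22 in normal tissue 3. The other normal tissues had 11.43 to 12.31 of it, with rno-miR-127 not detected. Of the 5 listed miRNAs, 2 were called higher in radiation-induced than in spontaneous carcinomas, 0 were called between radiation-induced carcinomas and normal tissue, and 3 were called lower in spontaneous carcinomas than in normal tissue. The part of these cells in the levels of the cluster was not tested.

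Spontaneous carcinoma 1, which had the highest scaled signals of rno-miR-494, rno-miR-539 and rno-miR-134, was the other sample without the miR-200 family. It had the highest summed signal of the 5 neural miRNAs, 729, against 92.3 to 176 in radiation-induced carcinomas, 93.1 to 133 in the other spontaneous carcinomas and 80.8 to 88.1 in normal tissues. The neural marker rno-miR-124 was at log2 8.21 there and at the floor in the other 22 samples. Other listed miRNAs were raised elsewhere too. rno-miR-9 and rno-miR-9* were at 7.18 and 7.52 in spontaneous carcinoma 1, 5.69 and 5.22 in radiation-induced carcinoma 6 and 5.43 and 5.70 in radiation-induced carcinoma 8. The 1 tested miRNA of the list was called higher in both carcinoma groups than in normal tissue. Spontaneous carcinoma 4, also high for rno-miR-494, had a neural sum of 100.5 and rno-miR-200c at 13.20. Without spontaneous carcinoma 1 and radiation-induced carcinoma 3, rno-miR-539 differed by -1.10 between radiation-induced and spontaneous carcinomas (adjusted p = 0.057). The part of neural cells in these levels was not tested.

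The endothelial sum was highest in radiation-induced carcinoma 3 too, 2733 against 332 to 1061 in the other radiation-induced carcinomas, 308 to 999 in spontaneous carcinomas and 1370 to 2363 in normal tissues. The leukocyte, striated muscle and miR-200 sums were highest in other samples. The leukocyte sum was 925 to 5055 in radiation-induced carcinomas, 220 to 3923 in spontaneous carcinomas and 1659 to 3378 in normal tissues, with 1449 in radiation-induced carcinoma 3. The striated muscle sum was 52.1 to 98.6 in radiation-induced carcinomas, 56.5 to 184 in spontaneous carcinomas and 72.7 to 367 in normal tissues. The miR-200 sum was 49.1 to 19872 in radiation-induced carcinomas, 49.1 to 26659 in spontaneous carcinomas and 3440 to 10790 in normal tissues.

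Other imprinted loci gave 3 tested miRNAs of 5 on the array. rno-miR-335, from an intron of Mest, had log2 levels of 8.35, 7.35 and 6.03 in radiation-induced carcinomas 3, 6 and 7, 6.34 in spontaneous carcinoma 1 and 7.59 in normal tissue 3, the highest of their groups. It lay at the floor in 6 of the other 7 spontaneous carcinomas. It was called lower in spontaneous carcinomas than in normal tissue (-1.82 ± 0.69, SE, limma adjusted p = 0.037), and its difference of 1.64 ± 0.66 between radiation-induced and spontaneous carcinomas did not pass (adjusted p = 0.0823).

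rno-miR-483, from an intron of Igf2, was called lower in radiation-induced than in spontaneous carcinomas (-2.65 ± 0.80, SE, limma adjusted p = 0.027) and higher in spontaneous carcinomas than in normal tissue (3.72 ± 0.83, adjusted p = 0.00123). rno-miR-296* was called in none of the 3 comparisons.

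**Figure D5:**
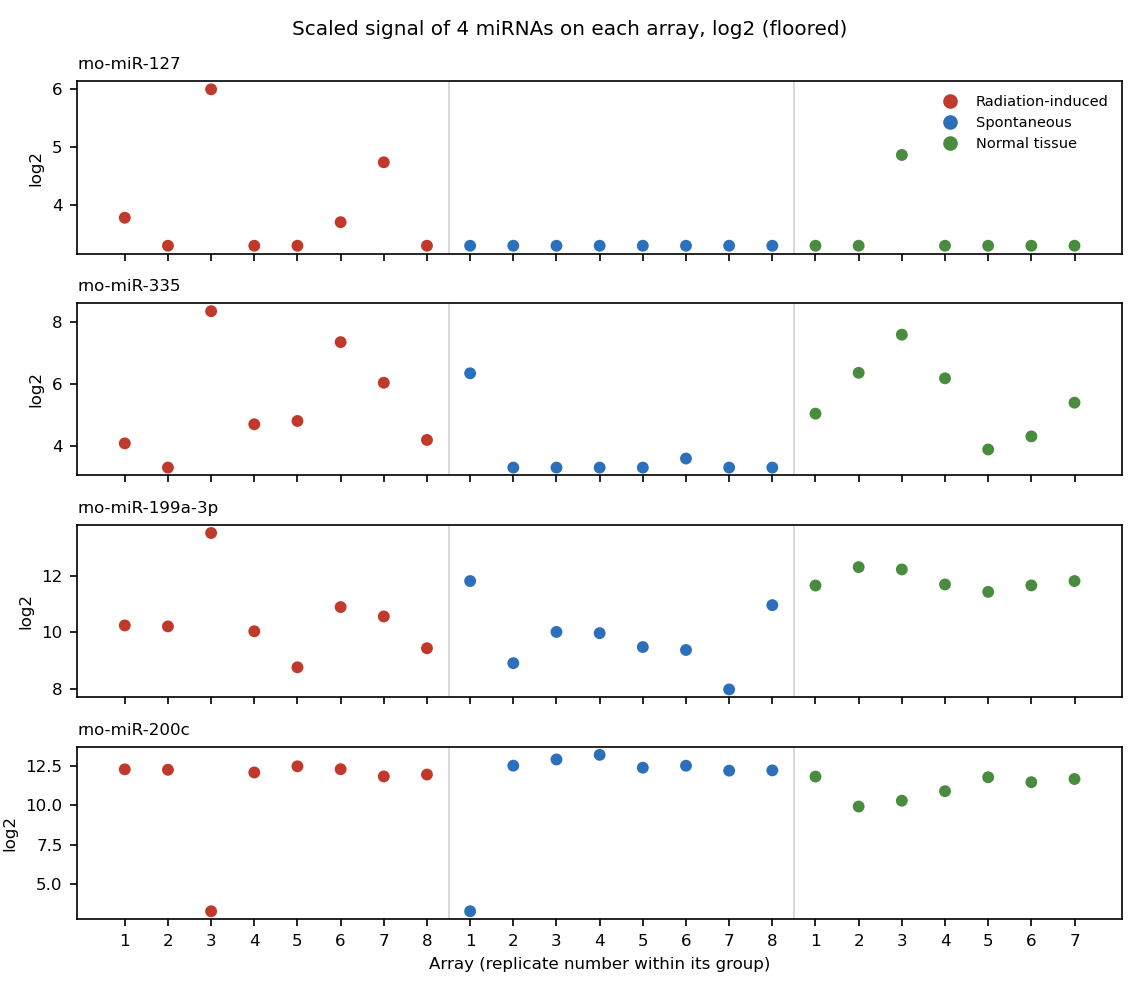
Scaled signal (log2, floored) of rno-miR-127, of rno-miR-335 from the Mest locus, of rno-miR-199a-3p as a fibroblast marker and of rno-miR-200c as an epithelial marker on each array, coloured by group. rno-miR-127, rno-miR-335 and rno-miR-199a-3p all have their highest value in radiation-induced carcinoma 3 (6.00, 8.35 and 13.51), where rno-miR-200c is at the floor.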

How the data were processed

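Spot intensities of the 23 arrays were read from the deposited scanner output, which is linear, background-subtracted within each array and made with Agilent Feature Extraction (version 9.5.1.1), per the file headers. The table of values that the authors deposited is the scanner's total gene signal, a linear intensity that is neither centred nor normalized, with low values set at 5. With 1 colour it has no direction, and it served as an alternative only.

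Processed signals were averaged over the unflagged spots of 938 probes. Because 35.7% of probe values were detected, scaling used the 75th percentile of the 199 probes that every array detected. Scaled signals under 9.81 (log2 3.29), a floor set at the arrays' median of their lowest signal well above background, were raised to it before the log2 step. The brightest probe stood for each miRNA. A probe had to be detected on 7 or more arrays for a miRNA to enter the test, which left 199. They were tested with limma 3.58.1 (R 4.3.3; tables read with the package data.table, version 1.17.8), fitting a mean for each group to all 23 arrays jointly, with Benjamini-Hochberg adjustment over the 199 and a threshold of 0.05. The fit was tested on simulated data. No counts underlie the values, so the number of arrays limits the precision.

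Every tested member is named with its values, and untested members by the arrays that detected them. Members and marker lists were chosen with earlier results of these data known. Alternatives changed the scaling, background, floor, filter, probe summary, slide term and samples. Member names were matched to RefSeq genes (GRCr8), and 7 arms were assigned no sequence.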

Additional observations from a re-analysis of the deposited data

Results flagged for a closer look

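A sample was marked where its gap to the nearest other sample of its group exceeded Dixon's 95% critical value for the group's range. Over 33 groups of values this marked 18. Most of these values stand against samples that are at the floor of log2 3.29, so the gap then spans the whole range. Where all other samples of a group lay at the floor, any value above it was marked. The rate of about 1 in 20 by chance does not apply to such values or to groups that share samples. The count of 18 thus cannot be read against it.

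In radiation-induced carcinoma 3 the levels (log2) were high for rno-miR-379 (4.97), rno-miR-299 (4.10), rno-miR-154 (3.97), rno-miR-376a (3.88), rno-miR-411 (3.72), rno-miR-329 (3.61) and rno-miR-337 (3.38). Radiation-induced carcinoma 1 was high for rno-miR-134 (4.10). In spontaneous carcinoma 1 rno-miR-134 was at 6.08 and rno-miR-341 at 3.42, not well above background, and the number of detected arms was 5, against at most 2 in the others. Spontaneous carcinoma 4 was high for rno-miR-487b (3.62), though not well above background. In normal tissue 3 rno-miR-127 (4.86), rno-miR-434 (4.48), rno-miR-136 (4.12) and rno-miR-379 (3.64) were high, and 13 arms were detected, against at most 6 in the other normal tissues. Normal tissue 6 was high for rno-miR-409-3p (3.38).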

How the results depend on the processing

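Between radiation-induced and spontaneous carcinomas 1 arm was called, and 0 were called in 13 of 15 other settings: percentile over all probes, quantile, no scaling, total gene signal, deposited table, raised floor, mean over probes, no filter, slide block, slide 4 alone, both groups alone, the M-coded spontaneous carcinomas alone, and without both carcinomas lacking miR-200. Normexp called 2, with 52.3% of all tested miRNAs called, and at least 12 detected arrays called 1. Leaving out 1 array gave 0 to 1. Against normal tissue the count stayed at 0 for radiation-induced carcinomas (0 to 0 leaving out 1 array) and was 1 with normexp for spontaneous ones, with 72.4% of all called (0 to 0). The difference of rno-miR-494 between radiation-induced and spontaneous carcinomas was 0.025 without scaling and 0.011 in the deposited table, where the median of all tested miRNAs was 0.81 and 0.84. Between spontaneous carcinomas and normal tissue it was -0.83 and -0.85, -0.88 within slide 4 and -0.15 with M-coded carcinomas. That of rno-miR-539 was -0.73 without scaling and -0.81 in the deposited table, where the median was -0.98 and -1.02. The cause of these changes was not tested. Detected arms averaged 6.5 in radiation-induced carcinomas, 3.75 in spontaneous carcinomas and 7.43 in normal tissues by the scanner's gene detection mark, and 1.62, 1.75 and 1.29 in these groups with 1 limit for all arrays. Leaving out 1 array they ran from 3.00 to 4.71 in radiation-induced carcinomas, 1.71 to 2.29 in spontaneous carcinomas and 3.83 to 5.67 in normal tissues. The common limit, any probe and these leave-one-out means were added after the data had been seen. No paired analysis was possible because the replicate numbers of the carcinomas are in accession order and pair no samples. Arms near or under the background carry no order, and the higher limits of spontaneous carcinoma arrays restrict what could be detected there.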
